A study of Mus musculus with 13 samples.

Results

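The genes described here carry out the copying of chromosomes and their separation at cell division. They are 54 named genes, of 36163 gene names on the array, chosen by name: 25 act in DNA replication, 26 in mitosis, and Mki67, Top2a and Ccna2 mark or act in both phases. Each gene was represented by its brightest probe. In all, 52 members passed the filter, a signal well above background on 2 or more arrays, and were tested among 25413 genes. The cyclin gene Ccne2 and the mitotic kinase gene Aurkb were not well above background on any array and were not tested.

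The samples were colorectal tissue of CPC-Apc mice (genotype CDX2P-NLS Cre;Apc+/loxP), and the mice of every group shared this genotype. In them a Cre recombinase under a CDX2 promoter deletes the single loxP-flanked allele of the tumor suppressor Apc. The state of the other Apc allele in tumors and in normal tissue was not examined here. Mice of the microRNA groups received both strands of miR-369 (-3p, -5p), 4 members of miR-302 (-a to -d) and miR-200c, 25 µg of each, and control mice received a negative control microRNA. All were given 24 tail vein injections on carbonate apatite particles, 3 per week from 8 weeks of age. The 4 groups were normal tissue of microRNA mice (2 arrays), tumors of microRNA mice (2), normal tissue of control mice (2) and tumors of control mice (7). Age at sampling and the mouse behind each array are not given in the sources used here, and the control microRNA is named for the control arrays only by an abbreviation in their description. Where arrays shared an animal, the p-values do not measure the spread between mice. Deletion follows the Cdx2-expressing epithelium, and the tissue was taken whole.

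Before a cell divides, the loader Cdc6 and its partner Cdt1 place the ring of Mcm2 to Mcm7 on DNA, and Cdc45 and the GINS complex turn that ring into a moving helicase. Cyclin E starts this step, ribonucleotide reductase supplies the building blocks, and polymerases, the sliding clamp Pcna and a ligase build the new strands. In mitosis, Cdk1 with cyclin B drives entry, spindle and kinetochore proteins attach the chromosomes, a checkpoint waits for every attachment, and the anaphase-promoting complex then triggers separation. In healthy colon these events take place in the lower crypt, below the differentiated cells of the surface.

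Expression of the replication and mitosis genes is timed by different promoter elements, so the promoters of the members were read first. E2F factors act on genes of the start of replication. A complex that binds the cell cycle genes homology region, or CHR, acts on mitosis genes together with the factor NF-Y at CCAAT boxes. The promoters below come from RefSeq (GRCm38.p6), run from 250 bases before the annotated start to 50 bases after it, and are shown for members named for their expression. The Mcm6 promoter was added after its matches were seen. Capitals mark the letters searched for, on both strands: CHR as TTTGAA or TTCGAA, the CCAAT box as CCAAT, and E2F as TTTGGCGC, TTTGCCGC, TTTCGCGC or TTTCCCGC.
Cdc6 promoter, chr11:98907901-98908200, plus strand: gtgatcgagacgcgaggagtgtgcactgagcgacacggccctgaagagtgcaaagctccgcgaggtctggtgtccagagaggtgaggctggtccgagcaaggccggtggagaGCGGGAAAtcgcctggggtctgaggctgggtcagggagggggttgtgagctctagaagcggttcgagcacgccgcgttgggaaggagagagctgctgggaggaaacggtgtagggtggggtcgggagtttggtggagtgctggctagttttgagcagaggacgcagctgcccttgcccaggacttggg
Rrm1 promoter, chr7:102441445-102441744, plus strand: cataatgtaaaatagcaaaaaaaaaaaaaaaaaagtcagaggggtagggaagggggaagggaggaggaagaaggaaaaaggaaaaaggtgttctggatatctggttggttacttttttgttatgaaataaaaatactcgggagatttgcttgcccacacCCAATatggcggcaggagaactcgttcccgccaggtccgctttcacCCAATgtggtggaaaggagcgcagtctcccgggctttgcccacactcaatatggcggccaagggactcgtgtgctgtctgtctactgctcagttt
Mcm6 promoter, chr1:128359656-128359955, minus strand: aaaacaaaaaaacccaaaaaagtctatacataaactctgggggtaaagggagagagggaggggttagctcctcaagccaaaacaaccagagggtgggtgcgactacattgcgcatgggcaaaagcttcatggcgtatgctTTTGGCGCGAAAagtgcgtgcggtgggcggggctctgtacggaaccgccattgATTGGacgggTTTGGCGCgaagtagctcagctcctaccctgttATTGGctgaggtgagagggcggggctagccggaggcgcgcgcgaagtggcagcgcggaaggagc
Kif23 promoter, chr9:61946750-61947049, minus strand: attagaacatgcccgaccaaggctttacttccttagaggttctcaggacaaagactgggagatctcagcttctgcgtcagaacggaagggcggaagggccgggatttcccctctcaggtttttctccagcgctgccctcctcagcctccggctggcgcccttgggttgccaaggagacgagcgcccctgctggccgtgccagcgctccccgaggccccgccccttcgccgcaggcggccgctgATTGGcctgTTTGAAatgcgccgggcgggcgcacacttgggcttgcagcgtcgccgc
Bub1b promoter, chr2:118597961-118598260, plus strand: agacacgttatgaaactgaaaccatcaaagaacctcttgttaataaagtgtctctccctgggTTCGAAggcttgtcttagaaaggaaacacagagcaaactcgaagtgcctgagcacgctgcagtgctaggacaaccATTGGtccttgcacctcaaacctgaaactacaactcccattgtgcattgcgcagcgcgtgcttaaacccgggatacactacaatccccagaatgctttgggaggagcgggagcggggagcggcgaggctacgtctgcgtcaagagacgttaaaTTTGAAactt
Top2a promoter, chr11:99024140-99024439, minus strand: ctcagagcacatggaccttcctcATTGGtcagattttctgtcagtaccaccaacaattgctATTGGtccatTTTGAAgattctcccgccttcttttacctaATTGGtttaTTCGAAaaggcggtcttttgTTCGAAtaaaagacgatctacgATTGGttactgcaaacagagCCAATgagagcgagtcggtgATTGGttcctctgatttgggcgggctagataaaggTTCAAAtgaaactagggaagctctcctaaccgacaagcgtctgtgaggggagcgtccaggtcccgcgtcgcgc
Mki67 promoter, chr7:135716330-135716629, minus strand: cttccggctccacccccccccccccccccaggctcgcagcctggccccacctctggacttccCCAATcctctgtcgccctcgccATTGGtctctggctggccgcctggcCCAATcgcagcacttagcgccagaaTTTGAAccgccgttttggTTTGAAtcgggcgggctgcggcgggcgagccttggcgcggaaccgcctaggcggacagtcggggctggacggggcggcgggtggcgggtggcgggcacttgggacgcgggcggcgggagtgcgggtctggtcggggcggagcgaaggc

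A promoter of 300 bases was found for 44 of the 54 members. An E2F element stood in 9 of 21 replication promoters (42.9%), in 1 of 21 mitosis promoters (4.76%, that of Cdk1) and in 2.6% of the promoters of 27025 genes. The CHR element showed the opposite division, with 16 of 21 mitosis promoters (76.2%), 5 of 21 replication promoters (23.8%) and 21.7% of all genes. CCAAT boxes were in 81.0% of mitosis promoters, 61.9% of replication promoters and 41.1% of all. In the sequences above, Cdc6 has its E2F letters upstream of the start and Mcm6 has 3 E2F matches, the first pair of which overlap each other. Kif23 has a CCAAT box and then a CHR across the start, and Top2a has 4 CHR and 6 CCAAT matches. A CHR within 50 bases of the start was in 16 of 21 mitosis promoters (76.2%), in 1 of 21 replication promoters (4.76%, that of Cdc45) and in 6.12% of all genes. A CCAAT box followed by a CHR within 60 bases was in 57.1% of mitosis promoters, 9.52% of replication promoters and 2.41% of all. Those last measures were chosen after the positions had been seen. Matches of different elements overlapped at 1 place among the members. A match is a description of letters, not of a bound factor.

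On each array, 50.7% to 57.0% of probes were well above background. The 75th percentile of the processed signal, by which each array was scaled, ran from 185 to 272 in normal tissue and from 363 to 644 in tumors. A log2 level here is the distance of a probe from that percentile on its own array. It compares arrays for the same gene and does not compare genes. The median of all genes fell by 0.11 on the log2 scale between normal tissue and tumors. Slide 2 held control normal 1 and 2, control tumor 3 and the first replicate of both microRNA groups, and slide 1 held the other 8 arrays. The file names also carry a number, whose meaning is not known here. Control tumors 1 and 2 shared number 5, control tumors 4 to 7 number 6, and control tumor 3 shared number 10 with control normal 2. In each microRNA group, replicate 1 had number 8 and replicate 2 number 2. The consensus correlation of arrays within a number was 0.31, so arrays of 1 number may not be independent. Markers of epithelium were high on every array, at a mean log2 level of 5.57 to 6.80, which fits the labelled tissue.

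The question of the tumor comparison was which replication and mitosis genes differed between tumors and normal tissue when both groups of mice were used, with the treatment as a term of the model. In that model 33 of the 52 tested members rose, where 11.7% of all 25413 genes did, and 0 fell, where 19.8% did (limma, Benjamini-Hochberg adjusted p under 0.05). The 33 rises include the mitosis member Cenpf, which passed the filter only through tumors. With another background correction, normexp, 34 rose and 1, Cenpf, fell. Every one of the 52 members had a positive log2 difference, against 43.5% of all genes. Mitosis members rose at 19 of 25, with a median difference of 0.88 (1.84-fold). Replication members rose at 12 of 24, with a median of 0.69 (1.61-fold). Whether more dividing cells or more RNA per dividing cell gives these values cannot be told apart in bulk tissue.

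**Figure D1:**
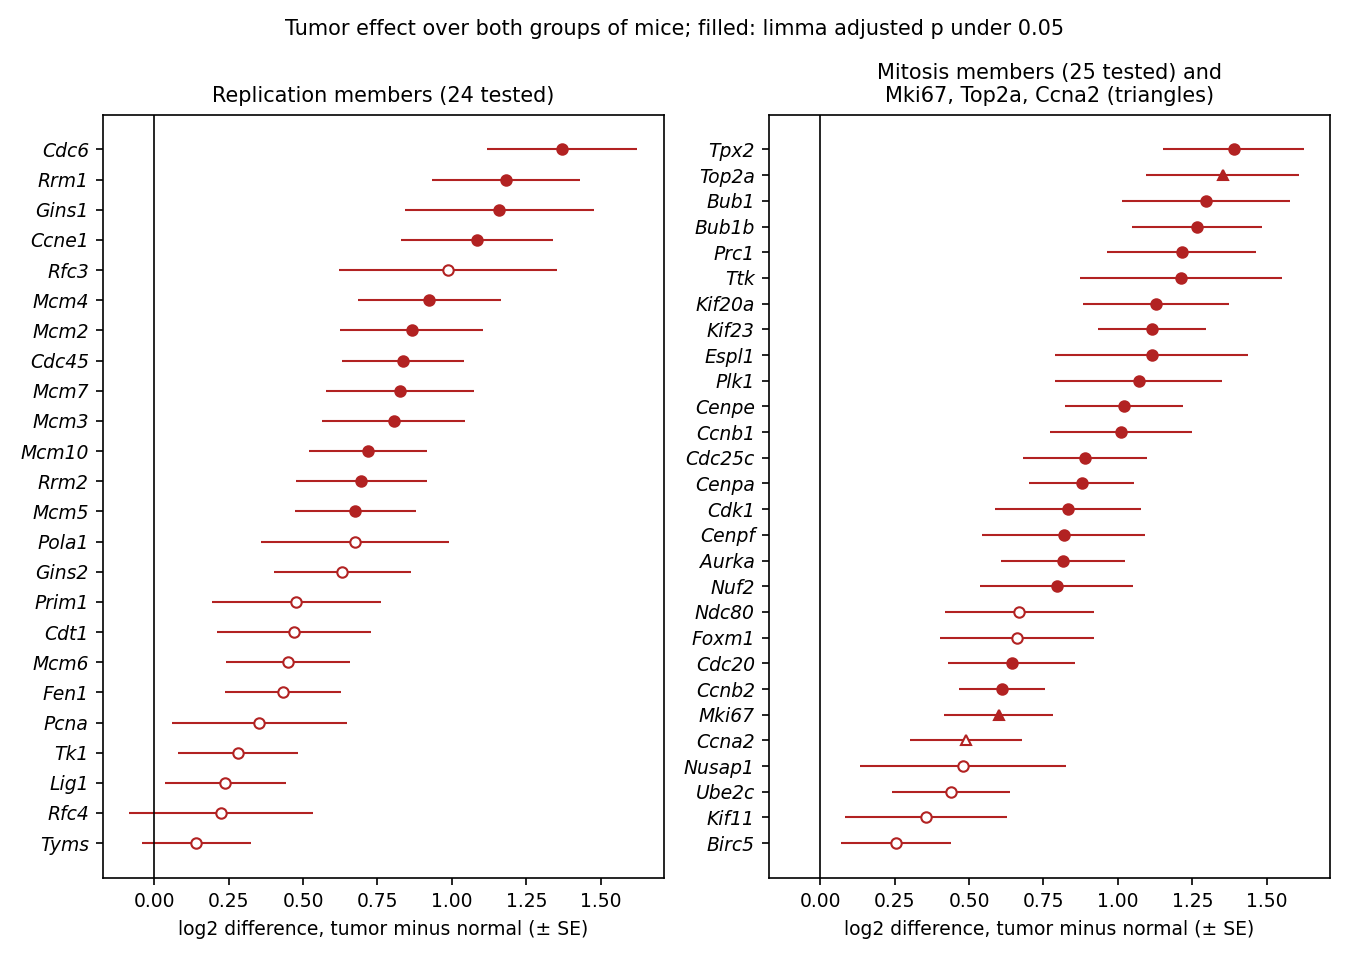
Log2 difference between tumors and normal tissue for each tested member, with its standard error, over both groups of mice (9 tumors, 4 normal arrays); filled symbols had an adjusted p under 0.05 in limma. All 52 symbols lie right of 0, from Tyms at 0.14 to Tpx2 at 1.39.

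Among the members that start replication, Cdc6, which loads the helicase ring, was at a log2 level of -2.77 and -2.36 in control normal tissue and -2.62 and -1.91 in microRNA normal tissue. The 7 control tumors ran from -1.85 over a median of -1.09 to -0.62, and the microRNA tumors were at -0.79 and -1.16. All 9 tumors were thus above the 4 normal arrays, and the difference was 1.37 ± 0.25 (SE; 2.58-fold, adjusted p = 0.00303 in limma). It was 0.52 (adjusted p = 0.0276) with normexp, and a second Cdc6 probe gave 0.86 ± 0.25. Ccne1, whose cyclin E starts the step, was at 1.53 and 1.47 in control normal tissue, 1.40 and 1.86 in microRNA normal tissue, 2.01, 2.70 and 3.22 (lowest, median and highest) in control tumors, and 2.69 and 2.56 in microRNA tumors. Again no tumor overlapped normal tissue, with a difference of 1.08 ± 0.26 (adjusted p = 0.00903).

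The helicase itself followed. Mcm4, a subunit of the ring, was at 2.90 and 2.91 in control normal tissue, 2.76 and 2.69 in microRNA normal tissue, 3.17 to 4.16 in control tumors with a median of 4.01, and 4.14 and 3.54 in microRNA tumors. The groups did not overlap, and the difference was 0.92 ± 0.24 (1.90-fold, adjusted p = 0.0137). Cdc45, which joins the ring at firing, was at -2.53 and -3.28 in control normal tissue, -3.07 and -2.82 in microRNA normal tissue, -2.47 to -1.75 in control tumors with a median of -2.06, and -1.68 and -2.34 in microRNA tumors. The lowest tumor stood just above the highest normal array, at a difference of 0.83 ± 0.21 (adjusted p = 0.0107), and with normexp it was -0.012. Mcm2, Mcm3, Mcm5, Mcm7 and Mcm10 also rose, by 0.68 to 0.86. Gins1, a part of the GINS complex, rose by 1.16 ± 0.32 (adjusted p = 0.0171). Mcm6, Cdt1 and Gins2 did not pass, at 0.45, 0.47 and 0.63.

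Supply and synthesis were less uniform. Rrm1, the large subunit of ribonucleotide reductase, was at 1.90 and 1.88 in control normal tissue, 1.98 and 1.38 in microRNA normal tissue, 2.40 to 3.21 in control tumors with a median of 3.18, and 3.60 and 2.70 in microRNA tumors. Every tumor was above every normal array, at a difference of 1.18 ± 0.25 (2.27-fold, adjusted p = 0.00538). Its partner subunit Rrm2 rose by 0.70 ± 0.22 (adjusted p = 0.0311). Tyms, thymidylate synthase, was at -2.42 and -2.02 in control normal tissue, -1.82 and -2.23 in microRNA normal tissue, -2.39 to -1.59 in control tumors with a median of -1.98, and -1.99 and -2.14 in microRNA tumors. Its groups overlapped, and its difference was the lowest of the members at 0.14 ± 0.18 (adjusted p = 0.574). The thymidine kinase gene Tk1 was at 0.28 ± 0.20 (adjusted p = 0.295).

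None of the 7 members that act in synthesis and joining of DNA passed in limma, and 2 had an unadjusted p under 0.05. The smallest adjusted p was 0.0562, at the clamp loader gene Rfc3 with 0.99 ± 0.37. Their median was 0.43. Rfc4, another clamp loader subunit, was at 2.51 and 2.46 in control normal tissue, 2.41 and 1.83 in microRNA normal tissue, 1.98 to 3.40 in control tumors with a median of 2.44, and 3.35 and 2.00 in microRNA tumors. Its tumors thus lay within and above the range of the normal arrays, and none below it (0.22 ± 0.31). Lig1, the replicative ligase, was at 3.43 and 3.25 in control normal tissue, 3.52 and 3.40 in microRNA normal tissue, 3.20 to 4.25 in control tumors with a median of 3.57, and 3.83 and 3.40 in microRNA tumors, a difference of 0.24 ± 0.20. The sliding clamp Pcna was at 0.35 ± 0.29 and the flap nuclease Fen1 at 0.43 ± 0.19. Of the 13 members that load and fire the helicase, 10 rose, and of the 4 of nucleotide supply, 2 rose. These divisions by role were drawn after the values were known, so the counts describe the members and were not tested against each other.

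Among the mitosis members, Kif23, a kinesin of the spindle midzone, had the smallest adjusted p of all members. It was at -0.60 and -1.12 in control normal tissue, -0.47 and -0.52 in microRNA normal tissue, -0.0031 to 0.65 in control tumors with a median of 0.43, and 0.83 and 0.24 in microRNA tumors. No tumor reached down to a normal array, and the difference was 1.12 ± 0.18 (2.17-fold, adjusted p = 0.00172). Tpx2, which activates the kinase Aurka on the spindle, had the largest difference of the members, 1.39 ± 0.24 (2.62-fold, adjusted p = 0.00212). It was at -0.01 and -0.30 in control normal tissue, 0.19 and -0.04 in microRNA normal tissue, 0.62 to 1.74 in control tumors with a median of 1.37, and 1.81 and 1.09 in microRNA tumors. The 9 tumors were all above the normal arrays, but a dimmer probe of Tpx2 gave only 0.11 ± 0.27. Prc1, which bundles midzone microtubules, rose by 1.21 and the kinesin Kif20a by 1.13.

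All 3 tested members of the spindle checkpoint rose. Bub1b, a checkpoint protein that holds back anaphase, was at -0.97 and -1.01 in control normal tissue, -0.64 and -0.73 in microRNA normal tissue, -0.09 to 0.96 in control tumors with a median of 0.45, and 0.68 and 0.02 in microRNA tumors. The groups stood apart, with a difference of 1.27 ± 0.22 (2.40-fold, adjusted p = 0.00226). Bub1, a kinase of the same checkpoint, rose by 1.30 ± 0.28 (adjusted p = 0.00621). Ttk, the kinase Mps1, rose by 1.21 ± 0.34 (adjusted p = 0.0189), but its signal was well above background on 11 of 13 arrays and its difference was -0.019 with normexp correction.

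Of the 5 kinetochore and centromere members, 4 rose in limma, with Cenpf counted. Cenpe, the kinetochore motor, was at 2.47 and 2.04 in control normal tissue, 2.44 and 2.20 in microRNA normal tissue, 2.81 to 3.73 in control tumors with a median of 3.14, and 3.70 and 3.07 in microRNA tumors. Its tumors did not overlap the normal arrays (1.02 ± 0.20, adjusted p = 0.00386). Cenpa, the histone that marks centromeres, was at 1.03 and 0.96 in control normal tissue, 0.87 and 0.80 in microRNA normal tissue, 1.50 to 2.15 in control tumors with a median of 1.80, and 2.16 and 1.50 in microRNA tumors. It too kept the groups apart, at 0.88 ± 0.18 (1.84-fold, adjusted p = 0.00434). Cenpf was well above background on 8 of 9 tumors and on 0 of 4 normal arrays. It thus passed the filter only through tumors, so both its call and the size of its fold are uncertain. Its fitted difference was 0.82 ± 0.27 (1.76-fold, adjusted p = 0.0389 in limma), with a 95% confidence interval of 0.22 to 1.41. The direction for Cenpf depended on the background correction, since with normexp it fell by 0.40 on the log2 scale (adjusted p = 0.0273).

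Entry into mitosis was represented by 7 members, of which 6 rose: Plk1, Ccnb1, Cdc25c, Cdk1, Aurka and Ccnb2, by 0.61 to 1.07. With normexp Cdc25c was at 0.21 (adjusted p = 0.196) against 0.89, and of the kinetochore members Nuf2 was at 0.42 (adjusted p = 0.0883) against 0.79. Foxm1, a transcription factor of mitosis genes, did not pass at 0.66 ± 0.26 (adjusted p = 0.0681). Espl1, the separase that cuts cohesin, rose by 1.11 and the activator Cdc20 by 0.64. The mitosis members with the smallest differences were the survivin gene Birc5, the spindle motor gene Kif11 and Ube2c, an enzyme of the anaphase-promoting complex. Birc5 was at 4.70 and 4.39 in control normal tissue, 4.57 and 4.62 in microRNA normal tissue, 4.43 to 5.21 in control tumors with a median of 4.70, and 5.28 and 4.55 in microRNA tumors, so the groups overlapped (0.25 ± 0.18, adjusted p = 0.302). Kif11 was at -0.60 and -1.20 in control normal tissue, -0.99 and -1.18 in microRNA normal tissue, -1.49 to -0.15 in control tumors with a median of -0.68, and 0.04 and -0.60 in microRNA tumors. Control tumors lay on both sides of normal tissue, with a difference of 0.36 ± 0.27 (adjusted p = 0.332). Ube2c was at 2.69 and 2.40 in control normal tissue, 2.53 and 2.30 in microRNA normal tissue, 2.45 to 3.28 in control tumors with a median of 2.72, and 3.35 and 2.81 in microRNA tumors, and did not pass (0.44 ± 0.20, adjusted p = 0.108).

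The markers of proliferation used by pathologists did not move alike. Top2a, the topoisomerase that untangles sister chromosomes, was at 1.10 and 0.81 in control normal tissue, 1.03 and 1.04 in microRNA normal tissue, 1.68 to 2.67 in control tumors with a median of 2.40, and 3.08 and 1.90 in microRNA tumors. All tumors were above normal tissue (1.35 ± 0.26, 2.55-fold, adjusted p = 0.00349). Mki67, the gene of the Ki-67 antigen, was at 4.55 and 3.89 in control normal tissue, 4.13 and 4.27 in microRNA normal tissue, 4.50 to 5.12 in control tumors with a median of 4.66, and 5.17 and 4.65 in microRNA tumors. Control normal 1 reached into the range of the tumors, and the rise was 0.60 ± 0.18 (1.52-fold, adjusted p = 0.0271). A second Mki67 probe gave 0.36 ± 0.20. The Mki67 call was lost without control normal 2 (0.47, adjusted p = 0.145), without microRNA normal 1 (0.56, adjusted p = 0.0659) and without microRNA tumor 1 (0.50, adjusted p = 0.0598). Ccna2, whose cyclin A acts from replication into early mitosis, was at 2.63 and 2.03 in control normal tissue, 2.45 and 2.61 in microRNA normal tissue, 2.52 to 3.15 in control tumors with a median of 2.89, and 3.25 and 2.71 in microRNA tumors. The groups overlapped, and the difference of 0.49 ± 0.19 did not pass (adjusted p = 0.0627).

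Counting only separation, 27 of the 52 members had all 9 tumors above all 4 normal arrays, against 6.71% of all genes. Of these, 16 were mitosis and 10 replication members. The counts depended on the normal arrays. Without control normal 2 the count of rises was 15, where 5.57% of all genes rose. Of the 15, 10 were mitosis and 4 replication members. Without control normal 1 the count was 19 (6.83% of all genes), with 12 mitosis and 5 replication members. The 52 differences stayed positive in both. With the replicate number as a block, 7 members rose (4.32% of all genes), 5 of mitosis and 1 of replication. Within slide 1, where normal tissue was a single array, 50 of 52 differences were positive. Their medians were 0.54 for mitosis and 0.35 for replication members, against -0.13 for all genes. Within slide 2 limma called 29 members higher, where 9.43% of all genes were.

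The tumors were then compared with each other. On each array the mean log2 level of the 24 replication members and of the 25 mitosis members was taken and set against the mean of the 4 normal arrays. Normal arrays lay between -0.02 and 0.03 for replication and between -0.22 and 0.10 for mitosis. Control tumors 3, 4, 6 and 7 were at 0.89, 1.03, 0.86 and 0.96 for replication and at 0.98, 1.12, 0.94 and 1.19 for mitosis. Control tumors 1, 2 and 5 were lower, at 0.34, 0.13 and 0.34 for replication and at 0.42, 0.47 and 0.55 for mitosis. Of these, control tumors 1 and 2 shared a file-name number, as did control tumors 4, 5, 6 and 7. The microRNA tumors divided in the same way, with tumor 1 at 1.09 and 1.27 and tumor 2 at 0.39 and 0.63.

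**Figure D2:**
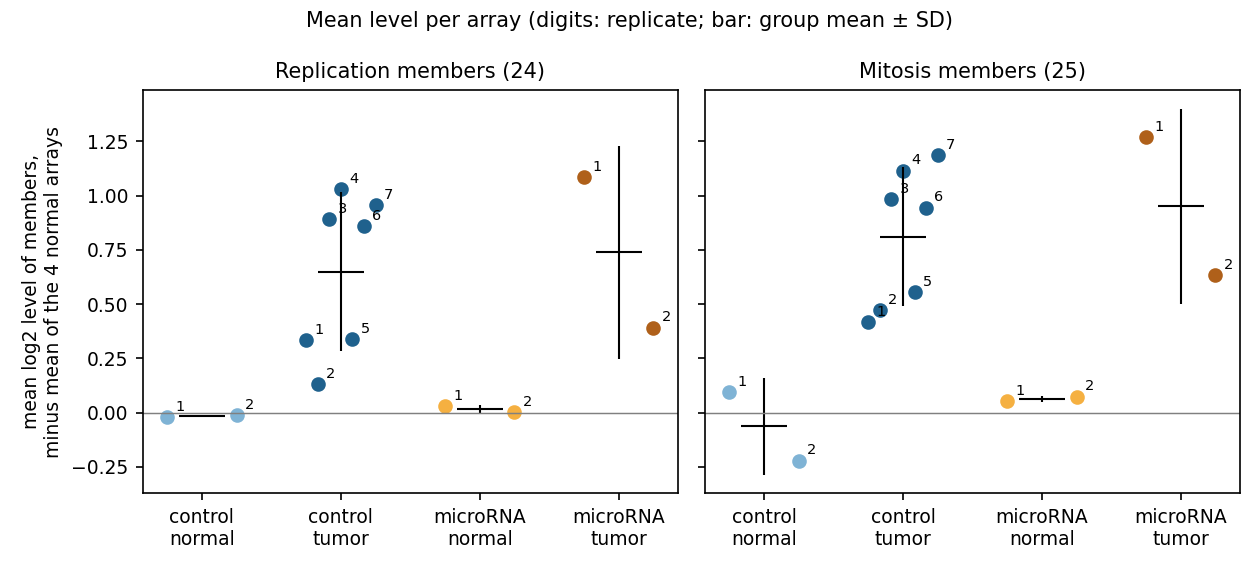
Mean log2 level of the tested replication and mitosis members on each array, minus the mean of the 4 normal arrays; digits give the replicate and bars the group mean and SD. Control tumors spread from 0.13 to 1.03 for replication and from 0.42 to 1.19 for mitosis, and the microRNA tumors lie at 0.39 and 1.09 and at 0.63 and 1.27.

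MicroRNA tumor 1 was the highest of the 9 tumors at 23 of 52 members, control tumor 4 at 16, control tumor 7 at 8 and control tumor 3 at 5. Control tumor 2 was the lowest at 27 members, control tumor 1 at 14, control tumor 5 at 6, control tumor 3 at 4 and microRNA tumor 2 at 1. Control tumor 3 was thus at both ends, depending on the gene. Control tumor 2 held 11 of 24 replication members and 19 of 25 mitosis members above every normal array. The median SD of a member over the 7 control tumors was 0.42, as it was over all genes. The distance between the replication mean and the mitosis mean ran from 0.96 to 1.28 in normal tissue and from 0.73 to 0.99 in tumors. Since probes of different genes do not share a scale, only its change between arrays can be read, and the ranges overlap: control normal 1, at 0.957, was below control tumors 1, 3, 4 and 6, at 0.992, 0.983, 0.988 and 0.986.

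**Figure D3:**
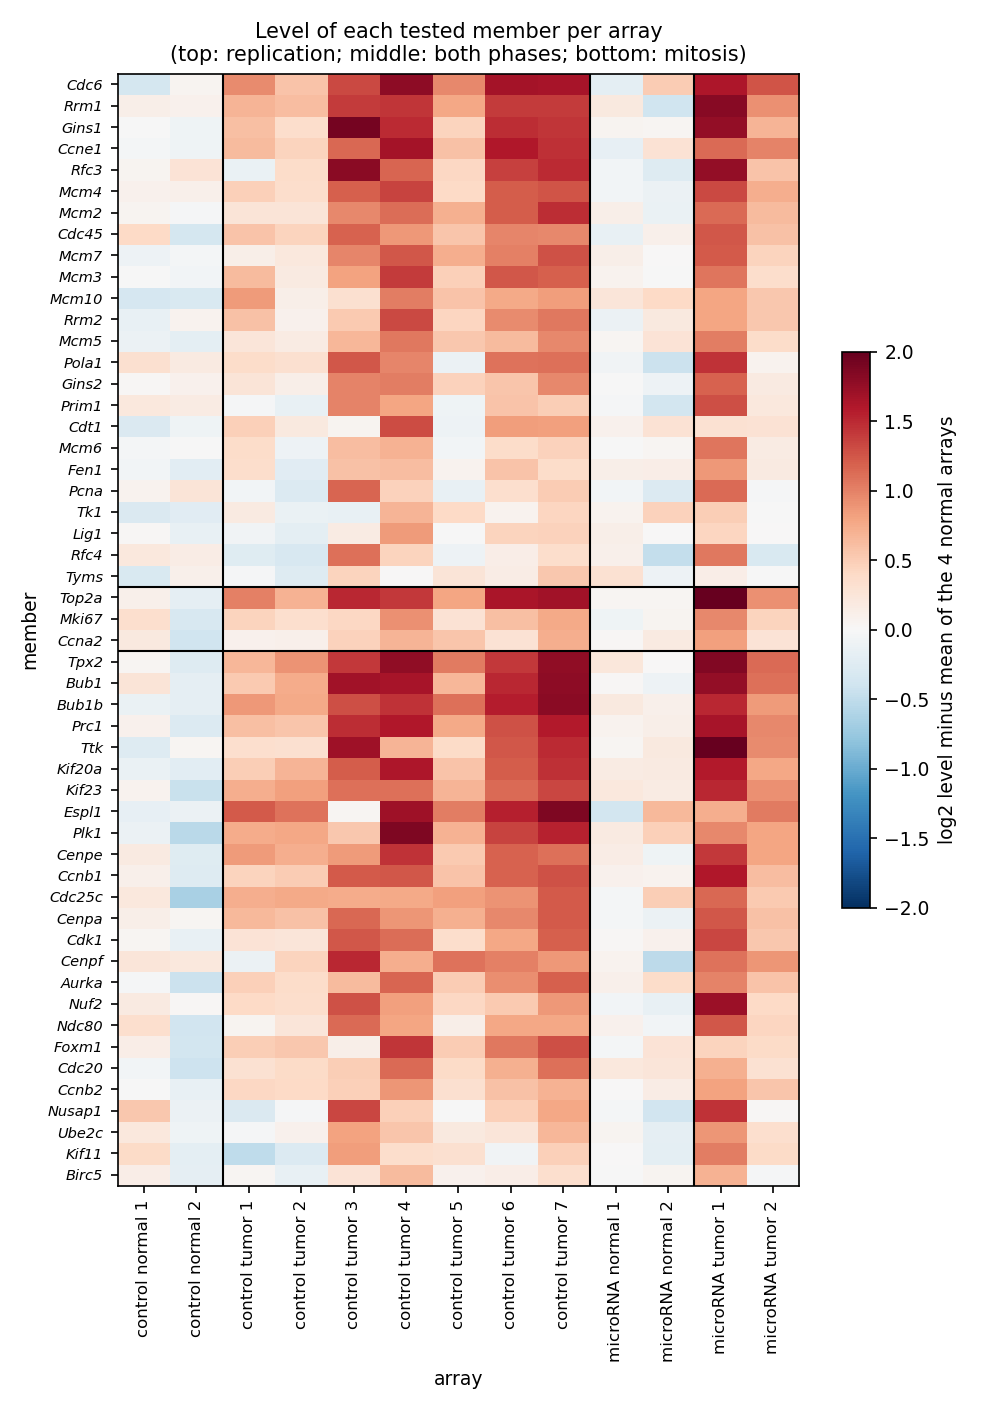
Log2 level of each tested member on each of the 13 arrays, minus its mean over the 4 normal arrays; rows are ordered within each role by the tumor difference and columns by group. Red columns are palest at control tumors 1, 2 and 5 and microRNA tumor 2, and strongest at microRNA tumor 1 and control tumors 3, 4, 6 and 7.

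Markers of several cell types differed between the same tumors, those of differentiated colonocytes among them. These 6 genes, among them the chloride exchanger Slc26a3 and the water channel Aqp8, all fell in tumors, at a median difference of -2.46. All 6 passed the filter, a signal well above background on 2 or more arrays. Their mean log2 level was 5.85 to 6.66 on normal arrays. It was 5.12, 4.66 and 5.07 in control tumors 1, 2 and 5, which were low in replication and mitosis genes, and 2.04, 3.41, 1.08 and 2.55 in control tumors 3, 4, 6 and 7. The microRNA tumors were at 3.55 and 4.00. T cell markers had a mean log2 level of -0.92, -1.21 and -1.24 in control tumors 1, 2 and 5 and of -2.05 to -1.81 in control tumors 3, 4, 6 and 7. B cell markers were likewise higher in the first 3, at -2.71 to -0.26 against -4.40 to -3.21, and neutrophil markers lower, at 2.13 to 2.67 against 2.93 to 3.72. Not every list divided the control tumors in this way. Smooth muscle markers were at 2.90, 3.25 and 1.26 in control tumors 1, 2 and 5 and at 0.31 to 1.33 in the other control tumors. Epithelial markers overlapped as well (6.01 to 6.35 against 5.57 to 6.03), as did squamous markers (-4.14 to -3.36 against -3.84 to -3.12). For the colonocyte markers, the log2 of the summed linear level was 9.39 to 10.4 on normal arrays and 4.98 to 8.91 on tumors. The part of these cell types in the members' differences was not tested.

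**Figure D4:**
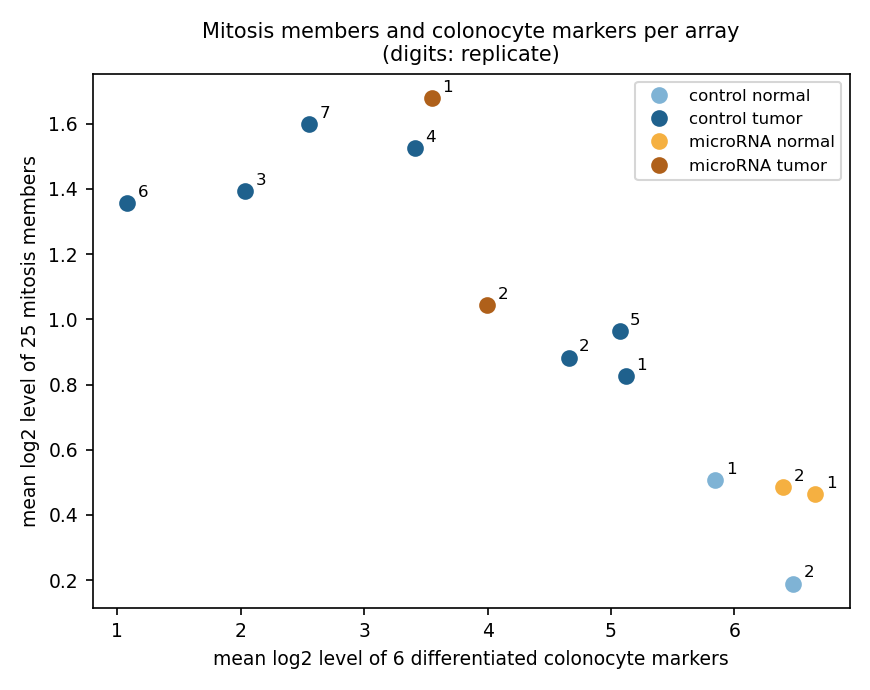
Mean log2 level of the 25 mitosis members against that of 6 markers of differentiated colonocytes on each array; colours give the group and digits the replicate. Normal arrays lie at the lower right, control tumors 1, 2 and 5 between them and the other tumors, and control tumor 6 furthest left at 1.08.

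Other cell types also differed between tumors and normal tissue. General epithelial markers fell at 4 of 8, with a median of -0.44 and a log2 summed level of 10.3 to 10.8 in normal tissue and 9.55 to 10.3 in tumors. With the mean of these 8 markers subtracted from every array, 44 members rose, 19 of replication and 22 of mitosis. The subtraction moved all genes upward too: their median difference became 0.30, 20.1% of them were called higher, and 72.1% of the called genes were higher, against 37.1% before. This alternative was chosen after seeing the data. All 9 smooth muscle markers fell (median -2.67), as did all 6 tested adipocyte markers (median -4.96) and 5 of 6 T cell markers (median -1.28). Germinal centre B cells, which divide rapidly, had 3 of 4 tested markers lower and 1 higher, with a mean log2 level of -1.05 and -1.84 in control normal tissue, -3.16 and -3.03 in microRNA normal tissue, -4.01 to -3.14 in control tumors, and -3.62 and -3.41 in microRNA tumors. B cell markers fell at 2 of 5, squamous markers at 3 of 5, and neutrophil markers rose at 4 of 5 (median 4.16). The control normal arrays stood apart in the squamous markers, at 2.15 and 0.14 against -4.21 and -4.40 in microRNA normal tissue, and in the B cell markers, at 1.14 and 0.13 against -1.37 and -1.72. The log2 of the summed level fell from 8.93 to 10.2 in normal tissue to 5.44 to 8.16 in tumors for smooth muscle, from 4.98 to 5.85 to 0.74 to 3.14 for adipocytes and from 2.76 to 3.15 to 1.06 to 2.09 for T cells. It was 6.38 to 7.10 in normal tissue and 7.17 to 7.91 in tumors for neutrophils, and overlapped between the tissues for B cells (1.22 to 4.69 and -1.33 to 2.55), germinal centre B cells (-0.24 to 1.27 and -0.68 to -0.14) and squamous epithelium (-1.71 to 4.81 and -0.63 to 2.08). The adipocyte marker Lep and the germinal centre marker Gcsam were not well above background on any array. Their part in the members' differences was not tested.

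Each group of mice was then examined on its own. In control mice, 20 of 52 members rose between normal tissue and tumors, where 7.95% of all genes did, and 0 fell. Mitosis members rose at 15 of 25 (median difference 0.99) and replication members at 4 of 24 (median 0.75). Bub1b had the smallest adjusted p, 0.0101 in limma, at 1.41 ± 0.28, and Cdc6 the largest difference, 1.42 ± 0.34 (adjusted p = 0.0180). Plk1, the polo-like kinase of mitotic entry, was at 3.04 and 2.62 in normal tissue against 3.71 to 5.03 in tumors with a median of 3.94, a difference of 1.41 ± 0.34 (adjusted p = 0.0193). These calls rested on both normal arrays, since 1 member passed without control normal 1 and 0 without control normal 2. Both of these arrays were on slide 2, and every control tumor except control tumor 3 was on slide 1. Slide and tissue can therefore hardly be separated in control mice. The count was 12, 12 and 11 without control tumors 4, 6 and 7.

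In microRNA mice, with 2 arrays a side, limma called 0 of 52 members, where 1.42% of all genes rose, and the smallest adjusted p was 0.0707, at Rrm1 with 1.47 ± 0.40. At an unadjusted p under 0.05 there were 23 members, against 22.1% of all genes, and limma with trend and robust estimation also called 0. The differences were positive at 50 of 52 (43.0% of all genes), with medians of 0.95 for mitosis and 0.73 for replication members. Both tumors were above both normal arrays at 47 of 52, where 21.0% of all genes were. All 20 members called in control mice were also higher in microRNA tumors, without overlap. Tyms and Tk1 were the members below 0, at -0.04 and -0.01.

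**Figure D5:**
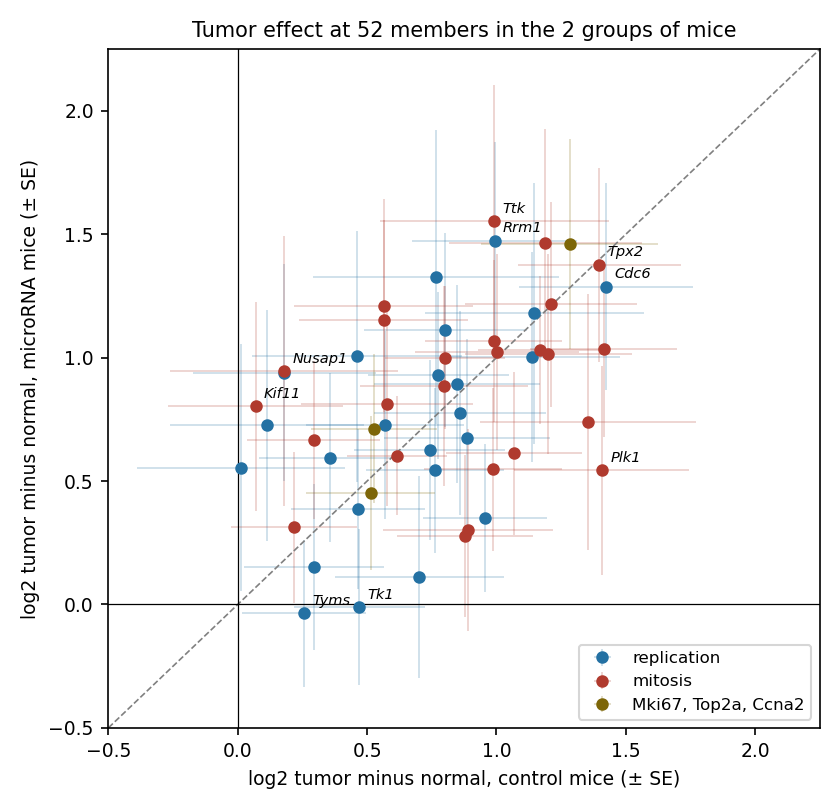
Log2 difference between tumors and normal tissue for each of 52 members in control mice (7 tumors, 2 normal arrays) and in microRNA mice (2 and 2), with standard errors; the dashed line marks equal values. Most members lie above 0 on both axes, Plk1 at 1.41 and 0.54 and Kif11 at 0.07 and 0.80.

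No member's tumor difference was shown to differ between the groups of mice. The difference of the differences was called at 0 members (0.291% of all genes were called), with 0 at an unadjusted p under 0.05 (6.07% of all genes) and a smallest adjusted p of 0.829, and limma with trend and robust estimation also called 0. Its values ran from -0.86 at Plk1 to 0.77 at Nusap1, a microtubule-bundling protein. The median 95% confidence interval reached 1.12 to either side on the log2 scale, and only 5 of 52 intervals lay within a difference of 1 either way. The data therefore do not show that the differences were equal.

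Tumors of microRNA mice were set directly against tumors of control mice, the comparison that asks about the treatment. Here limma called 0 of 52 members, where 0.00393% of all genes were called, with 0 at an unadjusted p under 0.05 (2.18% of all genes) and 0 with trend and robust estimation. The median member difference was 0.14 and the range -0.36 to 0.79. The member furthest from 0 was Ttk. It was at -1.26 and -2.70 in microRNA tumors and at -3.33 to -1.95 in control tumors with a median of -2.96, and its difference of 0.79 ± 0.44 had a 95% confidence interval of -0.18 to 1.75. At 28 members (53.8%) both microRNA tumors lay within the range of the control tumors, where 65.5% of 25389 genes with values on all 9 tumors did. MicroRNA tumor 1 was above all control tumors at 23 members (44.2%, against 11.8% of those genes), and microRNA tumor 2 at 0 (8.52% of those genes). For 39 members the interval excluded a difference of 2-fold or more in either direction.

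In normal tissue the microRNA arrays were set against control arrays, with 2 on each side. Again 0 of 52 members were called (0.535% of all genes were), 0 had an unadjusted p under 0.05 (5.47% of all genes), and limma with trend and robust estimation called 0. Mcm10, a factor of helicase firing, was at 1.49 and 1.65 in microRNA mice and 0.93 and 0.96 in control mice, a difference of 0.63 ± 0.30 with a 95% confidence interval of -0.03 to 1.29. Tk1 was at 2.77 and 3.16 against 2.42 and 2.47, a difference of 0.52 ± 0.32. For both genes the microRNA arrays were above the control arrays without overlap, as at 16 of 52 members and 21.3% of all genes, and neither passed (adjusted p = 0.929 and 0.962 in limma).

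Other genes of the same processes were counted from lists that held none of the members. Like the members, these lists were chosen with earlier results of these data known. Of 35 further replication genes 9 rose and 0 fell (median difference 0.41), among them Orc2 of the origin recognition complex at 1.19, the polymerase subunit Pole at 1.12, the primase subunit Prim2 at 0.93 and the fork protection factor Timeless at 0.93. Of 55 further mitosis genes 35 rose and 1 fell (median 0.83). The centromere proteins Cenpn and Cenpt rose by 1.58 and 1.12, the checkpoint protein Zwilch by 1.25 and the kinase Mastl by 1.46, whereas securin, Pttg1, fell by 0.54. The background for a rise is that of the tumor comparison, 11.7%. With 35 regulators added, 62 of 125 such genes were called, 54 higher and 8 lower. Of all genes, 11.7% were called higher and 19.8% lower. Without control normal 2, 30 were called in either direction, and 5.57% of all genes were called higher.

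Regulators of the cell cycle moved in both directions, with 10 of 35 higher, against 11.7% of all genes, and 7 lower, against 19.8% (median difference 0.25). Myc, a driver of growth and a target of Wnt signalling, rose by 1.32 ± 0.25 (adjusted p = 0.00348 in limma). Mybl2, which acts at CHR promoters, rose by 1.44 ± 0.29, and E2f7, an E2F factor that represses, by 1.14 ± 0.23. The retinoblastoma gene Rb1, which restrains E2F, fell by 0.76 on the log2 scale, and its relative Rbl2 by 0.99. Inhibitors of cyclin-dependent kinases went both ways: Cdkn1a fell by 1.03 and Cdkn1b by 0.68, while Cdkn2a rose by 2.80 and Cdkn1c by 1.92. Cdk4 and Ccnd1, a kinase and cyclin of the G1 phase, rose by 0.97 and 0.76. Of the other D cyclins, Ccnd3 fell by 0.62 (adjusted p = 0.0162) and Ccnd2 was at 0.15 (adjusted p = 0.626). Rbl2, the inhibitors, Cdk4 and the D cyclins were singled out after their values were seen.

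Several members had more than 1 probe. The 12 such members had 15 further probes past the filter, of which 13 were higher in tumors, 7 of them called over all probes, and 2 were lower. The lower ones were a dim probe of Cdk1 at -0.25 and a probe of Rfc4 at -0.01. A dimmer probe of Foxm1 gave 0.97 ± 0.31 against 0.66 at the brightest. Probe positions are those of the array design on mm9: the Kif23 probe lies at chr9:61767492-61767732, the Cdc6 probe at chr11:98782986-98783045, the Top2a probe at chr11:98855522-98855581 and the Mki67 probe at chr7:142881591-142881650. Exon and UTR boundaries on that build were not analysed here.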

How the data were processed

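RNA of 13 tissue samples (35 ng each, Cy3) was hybridized to 1-colour arrays. Scans were read by the authors with Feature Extraction (version 10.7.3.1, per the file headers). The deposited processed signal is a background-subtracted fluorescence intensity on a linear scale, not scaled between arrays. The deposited mean raw and background intensities were used for 1 alternative. The deposited series table held the same intensities (largest difference 0). Control spots and spots marked as outliers were left out, spots of a probe were averaged, and log2 signals were reduced by the log2 of the array's 75th percentile. Probes well above background on at least 2 arrays were kept (35214 of 55681), which gave 25413 genes by brightest probe. Tests used limma 3.58.1 (lmFit, eBayes; R 4.3.3) on all 13 arrays with Benjamini-Hochberg adjustment over all genes. The procedure was tested on simulated data. The number of arrays limits the precision.

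The members and all lists were chosen with earlier results of these data known. Values are given in full for up to 5 members per role with the smallest adjusted p, the 3 per role with the lowest difference, Mki67, Top2a and Ccna2, the 3 with the smallest unadjusted p in the microRNA comparisons, and up to 4 genes of each further list; other members may be named. Of the named members whose promoter held a motif, 2 per role were printed. Same-numbered arrays of different groups were compared by their deviations from the group means: 12 pairs had correlations of -0.19 to 0.42, 3 of them over 0.1. Between groups of 2 arrays the deviations mirror each other, so both replicates give nearly the same value and are not separate checks. The highest value, 0.42, was that of microRNA normal tissue with microRNA tumors, whose same-numbered arrays also shared a file-name number. The check therefore cannot decide whether the numbers pair the samples, and the main model used no pairing.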

Additional observations from a re-analysis of the deposited data

Results flagged for a closer look

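Of 54 sets of values examined in the control tumors, 1 stood out. Control tumor 7 had a Cdc25c level of -1.23, while the other 6 control tumors lay between -1.72 and -1.55. Cdc25c is the phosphatase that activates Cdk1. The gap was 0.656 of the whole range, above Dixon's critical value of 0.568 for 7 samples. Chance flags about 1 in 20 such groups.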

How the results depend on the processing

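The counts of members called depended on the normal arrays and on scaling. Over both groups of mice, the count of 33 stood beside 11.7% of all genes called higher. It became 52 without scaling between arrays (57.3% of all genes) and 7 with a replicate block (4.32%). Without both arrays of file-name number 10 it was 13 (6.01%), an alternative chosen after seeing the data. With 1 array left out it was 15 to 37 (5.57% to 12.6%). Under the alternatives, such shares were taken only for the model over both groups of mice. In control mice, 20 became 52 without scaling, 0 with the replicate block, 3 within slide 2, 11 with a block for the slide, 0 without the number 10 arrays and 0 to 23 with 1 array left out. In microRNA mice, 0 became 32 without scaling, 9 with the file-name number as a random block, 6 with normexp, 3 with a block for the slide, and 1 with quantile normalization, without the filter, or with the mean of all probes. The 62 calls in either direction among 125 other cell cycle genes became 113 without scaling and 19 with the replicate block. They became 32 without the number 10 arrays and 30 to 65 with 1 array left out. The replicate numbers share no known animal, and the block changed no other count. Under normexp, 34 members rose and 1 fell, Cenpf at -0.40 (adjusted p = 0.0273), while Cdc45 was at -0.012, Ttk at -0.019 and Tyms at -0.20. It moved 5 members by over 1.5-fold: Cenpf, Cdc45, Ttk, Cdc6 and Cdc25c. Within slide 1, Birc5 was at -0.078 and Tk1 at -0.46. Tyms was at -0.04 with the replicate block, and Rfc4 ran from -0.028 (without microRNA tumor 1) to 0.38 with 1 array left out. The cause of these changes was not tested. Without scaling, the median of all genes was 0.89 higher in tumors, and the share of called genes that rose was 95.5%, against 37.1% in the values reported, 54.0% with median scaling, 51.6% with quantile normalization, 21.8% with normexp and 23.4% without the filter. The median of replication members minus that of mitosis members was -0.19, and -0.27 to -0.15 with 1 array left out. The comparisons of microRNA with control arrays gave 0 calls under every alternative run.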
